A study of Mus musculus with 35 samples.

Results

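The livers examined here were taken 15 days after a single injection of N-ethyl-N-nitrosourea (ENU), an alkylating agent that mutates DNA. Members were chosen by their labels alone. Of the 35 arrays of the study, 5 were labelled as ENU at post-treatment day (PTD) 15, 1 array per mouse, and they were compared with 7 arrays of mice given the vehicle dimethylsulfoxide (DMSO). All mice were female Big Blue transgenic mice, a line that carries a lambda shuttle vector for mutation assays, and were 6 months old. The ENU mice had received 120 mg/kg by intraperitoneal injection. The labels place 3 of the DMSO mice at day 1 and 4 at day 30 after the injection, so no control was killed at the same day as the PTD 15 mice. The file headers of the 3 labelled day 1 name day 0 instead. Each array was a 384-well real-time PCR plate with assays for 376 miRNAs and 4 reference small RNAs, read as the threshold cycle (Ct), the cycle number when the signal of a well passes a set line. A lower Ct stands for more RNA, and a difference of 1 cycle stands for about a 2-fold difference.

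MicroRNAs are small RNAs that guide silencing complexes to messenger RNAs, mainly by pairing of their seed, bases 2 to 8 from the 5′ end, and miRNAs with the same seed are expected to share many targets. Genes of the miR-34 family are bound and activated by the transcription factor p53 after DNA damage, and their products repress cell cycle genes and survival genes. In hepatocytes miR-122 makes up a large part of all miRNAs. Other cells of the organ add their own miRNAs, such as miR-223 and miR-142 of leukocytes, miR-126 of endothelium and miR-144 and miR-451 of red blood cells and their precursors.

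The mature sequences of the miRNAs on which the results turn are printed 5′ to 3′ from RefSeq (GRCm38.p6), with the seed in capitals. The table held the mature sequence of 33 of the 43 differentially expressed miRNAs described later, 22 of the 25 that were higher and 11 of the 18 that were lower. The first set shows the seed of the miR-34 and miR-449 family in 3 members that were called higher and in miR-449c, which was not called. They are miR-34a (chr4:150068473-150068494, plus strand), miR-34b-5p (chr9:51103610-51103632, minus strand), miR-449a (chr13:113037549-113037570, plus strand) and miR-449c (chr13:113036008-113036028, plus strand).
miR-34a: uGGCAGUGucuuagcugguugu
miR-34b-5p: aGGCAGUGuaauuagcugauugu
miR-449a: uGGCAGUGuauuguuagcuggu
miR-449c: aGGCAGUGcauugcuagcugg

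A second set of 3 miRNAs also shares 1 seed, and all 3 were higher at PTD 15. They come from different chromosomes, miR-130a from chr2:84741116-84741137 (minus strand), miR-130b from chr16:17124071-17124092 (minus strand) and miR-301a from chr11:87113054-87113076 (plus strand).
miR-130a: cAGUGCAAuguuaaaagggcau
miR-130b: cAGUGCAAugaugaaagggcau
miR-301a: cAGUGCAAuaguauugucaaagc

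Another set shows the seed of the miR-17 group, in which miR-106b and miR-93 from 1 cluster of chromosome 5 were called and miR-17 and miR-20a from chromosome 14 were not.
miR-106b: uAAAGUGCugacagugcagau
miR-93: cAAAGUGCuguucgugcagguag
miR-17: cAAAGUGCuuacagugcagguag
miR-20a: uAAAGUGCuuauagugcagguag

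The last set holds the other abundant miRNAs that passed in all 4 settings described later and for which the table has a sequence. Their seeds all differ. Of these, miR-677, miR-762 and miR-877 were higher, and miR-369-5p, miR-302c*, miR-681, miR-453, miR-758 and miR-489 were lower.
miR-677: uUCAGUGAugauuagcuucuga
miR-762: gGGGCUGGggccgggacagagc
miR-877: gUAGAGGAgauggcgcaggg
miR-369-5p: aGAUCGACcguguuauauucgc
miR-302c*: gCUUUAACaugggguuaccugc
miR-681: cAGCCUCGcuggcaggcagcu
miR-453: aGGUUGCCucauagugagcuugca
miR-758: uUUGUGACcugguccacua
miR-489: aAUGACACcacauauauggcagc

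Within an array, the average Ct of the reference RNAs U6, snoRNA142, snoRNA202 and snoRNA251 was subtracted from the Ct of a miRNA to give its ΔCt. Levels are given as -ΔCt, a log2 scale on which a higher value is more RNA relative to the reference RNAs, and a log2 fold change is the mean -ΔCt at PTD 15 minus that of the 7 controls. The PTD 15 arrays were compared with the controls in limma, and a differentially expressed miRNA (DEM) had an unadjusted p under 0.01 and a fold change above 2. A miRNA was called abundant where its mean Ct in the controls was at most 30, and rare where it was above. Among the DEMs the nearest to this limit were miR-681 with a control mean Ct of 29.8 and miR-684 with 30.2. By this limit 213 miRNAs were abundant and 163 rare.

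Array measures differed between the groups before any miRNA was examined. The reference RNAs had a mean Ct of 22.5 ± 0.588 (SD, n = 5) at PTD 15, against 21.8 ± 0.514 (SD, n = 7) in the controls (exact permutation test, p = 0.0404, two-sided). The difference was unequal among the 4 reference RNAs, 1.33 cycles for U6, 0.847 for snoRNA142, 0.639 for snoRNA202 and 0.277 for snoRNA251. The median Ct of the abundant miRNAs was 26.4 ± 0.329 (SD, n = 5) and 26.1 ± 0.259 (SD, n = 7), a difference of 0.364 cycles (exact permutation test, p = 0.0631). Run periods were formed from the run dates in the file headers, with runs of February and March joined as the first. This first run period held the 5 PTD 15 arrays and the 3 controls labelled day 1. The controls labelled day 30 numbered 1 and 2 fell in a second, and those numbered 3 and 4 in the third. Whether a run period was also a batch of extraction or reverse transcription is not stated. The Ct difference between the 2 reverse transcription control wells, which no miRNA enters, lay between -0.0261 and 0.212 cycles at PTD 15. It lay between -0.261 and -0.151 in the 5 controls of the first and second run periods, and was 0.284 and 0.296 in the 2 controls of the third run period. The number of DEMs is therefore given also after scaling to the median Ct of the abundant miRNAs of each array, and against the 3 controls that were run in the same period. As a check of the tissue label, miR-122 had the lowest control mean Ct of the 376 miRNAs, 14.2, and the muscle miRNAs miR-1, miR-133a, miR-133b, miR-208 and miR-208b had control mean Cts from 28.2 to 34.2.

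At PTD 15, 43 miRNAs were DEMs, 11.4% of the 376 tested. The 25 higher DEMs (6.65%) were led by miR-34a, miR-34b-5p, miR-449a, miR-466d-5p and miR-34c, and the 18 lower DEMs (4.79%) by miR-135b, followed by the rare miR-684 and then by the abundant miR-302c*, by miR-369-5p and by miR-681. With a Benjamini-Hochberg adjusted limma p under 0.05 in place of the unadjusted threshold, 39 miRNAs passed (10.4%), 22 higher (5.85%) and 17 lower (4.52%). Abundant miRNAs held 26 DEMs (12.2% of 213), 19 higher (8.92%) and 7 lower (3.29%). Rare miRNAs held 17 (10.4% of 163), 6 higher (3.68%) and 11 lower (6.75%). The median log2 fold change was 0.36 over all 376 miRNAs, 0.43 over the abundant and 0.21 over the rare, and 251 miRNAs lay above 0. In bulk liver, a changed number of cells of a type cannot be told apart from a changed amount of RNA per cell.

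**Figure D1:**
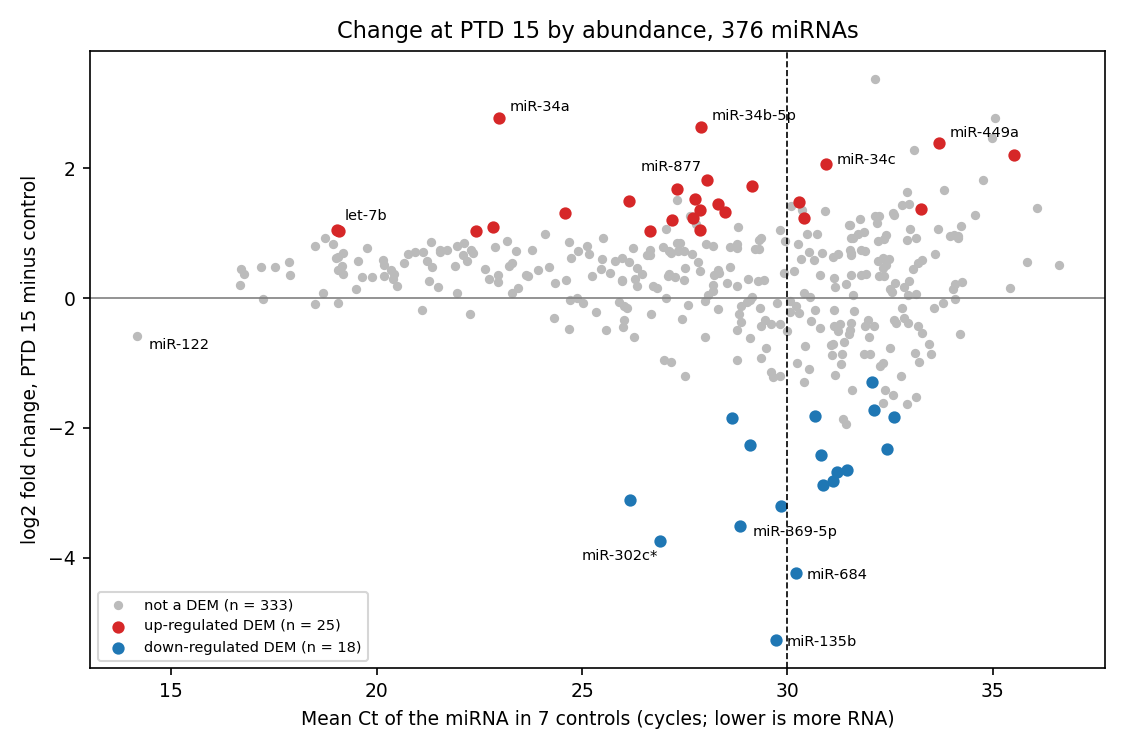
Each point is 1 of 376 miRNAs, with its mean Ct in the 7 controls on the x axis and its log2 fold change at PTD 15 on the y axis. Red and blue points are the 25 higher and 18 lower DEMs, grey points are the other miRNAs, and the dashed line at a Ct of 30 separates abundant from rare miRNAs. miR-34a stands above the other abundant miRNAs at 2.78, and all the lower DEMs have a control mean Ct of at least 26.2.

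The split into higher and lower depended on the scaling. Scaled to the median Ct of all miRNAs of each array, 55 miRNAs passed (14.6%), 35 higher (9.31%) and 20 lower (5.32%), so that 63.6% were higher, and the median over all miRNAs was 0.39. Scaled to the median of the abundant miRNAs, the number of DEMs was about the same, 42 (11.2%), but 9 were higher (2.39%) and 33 lower (8.78%), so that 21.4% were higher in place of 58.1%. Over all miRNAs, the scaling to the abundant moved the median of the log2 fold changes from 0.36 to -0.05. All 18 lower DEMs passed under the latter in the same direction, and 9 of the 25 higher DEMs did. Against the 3 controls run in the same period, 152 miRNAs passed (40.4%), 134 higher (35.6%) and 18 lower (4.79%), and the median was 1.05. The reference RNAs of these 3 controls had a mean Ct 1.28 cycles below that of the PTD 15 arrays. The groups did not overlap (exact permutation test, p = 0.0357, the smallest value that this two-sided test allows for 5 against 3 arrays). With both changes together, 69 passed (18.4%), 28 higher (7.45%) and 41 lower (10.9%). In all 4 settings 20 DEMs passed in the same direction. The 7 higher ones were miR-34a, miR-34b-5p, miR-34c, miR-449a, miR-677, miR-762 and miR-877, and the 13 lower ones were miR-135b, miR-302c*, miR-369-5p, miR-453, miR-489, miR-681 and miR-758 among the abundant, with miR-220, miR-292-5p, miR-464, miR-684, miR-742 and miR-883b-5p among the rare.

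**Figure D2:**
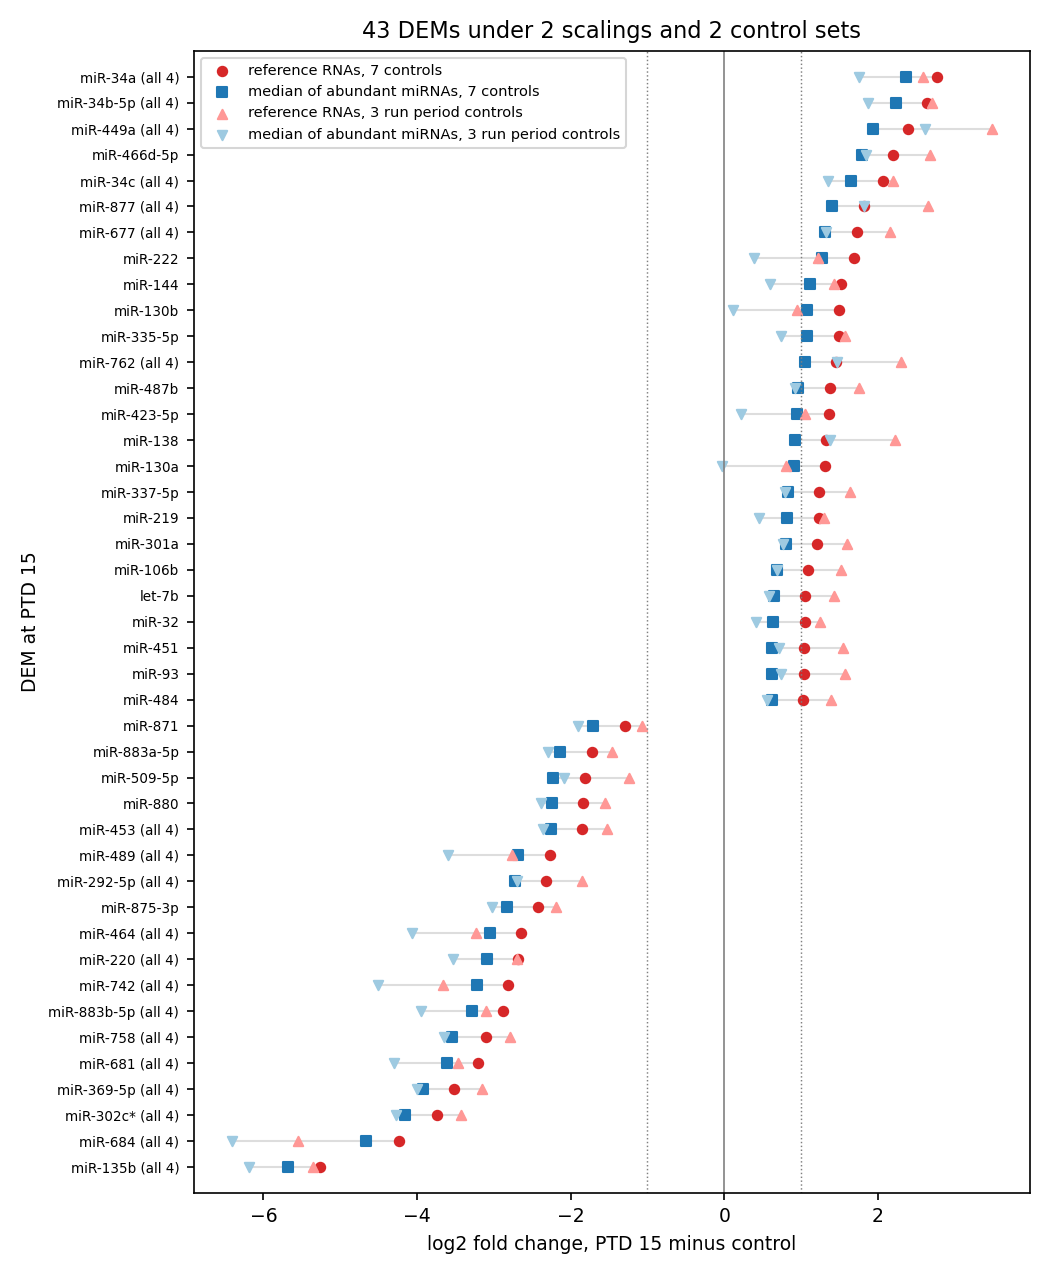
The log2 fold change at PTD 15 of each of the 43 DEMs (rows) is drawn in 4 settings, with the reference RNAs or the median of the abundant miRNAs as the scale and with all 7 controls or the 3 of the same run period. Dotted lines mark a log2 fold change of 1 in either direction, and "all 4" marks the 20 miRNAs that passed in every setting. miR-34a ran from 1.75 to 2.78 and miR-135b from -6.19 to -5.27, while miR-130a ran from -0.03 to 1.32.

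Among the DEMs, the 2 highest log2 fold changes were those of miR-34a and miR-34b-5p. Of the 7 measured members of the miR-34 and miR-449 family 4 were DEMs, all higher, against 6.65% of all miRNAs, and the median log2 fold change of the 7 was 2.07. Within the run period 6 of the 7 passed upward, against 35.6% of all miRNAs. miR-34a, the family member made from its own gene on chromosome 4, had -ΔCt values of 1.76, 1.49, 1.59, 1.63 and 1.23 at PTD 15. The 7 controls ran from -1.79 to -0.66 with a median of -1.29. All 5 treated livers lay above every control. The log2 fold change was 2.78 ± 0.27 (SE), a 6.85-fold increase (limma, adjusted p = 2.35e-05), and the exact permutation test gave p = 0.00126, the smallest value that 5 against 7 arrays allow.

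miR-34b-5p and miR-34c are cut from 1 primary transcript of a locus on chromosome 9. The -ΔCt of miR-34b-5p was -3.65, -3.15, -3.38, -3.84 and -3.56 in the treated livers, and the controls ran from -6.56 to -5.67 with a median of -6.23. The groups did not overlap, and the log2 fold change of 2.64 ± 0.26 (SE) was 6.23-fold (limma, adjusted p = 2.35e-05). miR-34c, with a control mean Ct of 30.9, had treated values of -6.77, -7.11, -7.56, -6.68 and -7.52 against controls from -9.78 to -8.54 with a median of -9.36. It was higher in every treated liver than in any control, 4.19-fold (log2 fold change 2.07 ± 0.31, SE, limma, adjusted p = 0.000993).

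The other arm of the miR-34b hairpin behaved differently. miR-34b-3p, which has another seed, ran from -9.17 to -6.89 at PTD 15 and from -9.16 to -7.62 in the controls. Replicate 5, at -6.89, lay above every control and the other 4 lay within or at the lower edge of the control range. Its log2 fold change of 0.42 ± 0.38 (SE) did not pass (limma, adjusted p = 0.474). Scaled to the median of the abundant miRNAs it was 0.01.

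The miR-449 genes, which sit together on chromosome 13 and are best known from ciliated epithelium, carry the miR-34 seed. miR-449a was rare, with a control mean Ct of 33.7, and was Undetermined in the treated liver of replicate 1, so that its fit rests on 4 treated arrays. Their values were -9.03, -9.28, -10.77 and -9.17, and the controls ran from -14.13 to -10.19 with a median of -12.35. Replicate 4 lay among the controls while the other 3 lay above all of them. The log2 fold change was 2.39 ± 0.69 (SE, limma, adjusted p = 0.0396), and the exact permutation test gave p = 0.0152. With the Undetermined well set to 40 cycles the log2 fold change was 0.74 and the call was lost. It also no longer passed when the treated replicate 2, 3 or 5 was left out, with log2 fold changes of 2.21, 2.29 and 2.25. By the methods' t-test and the exact permutation test it did not reach the threshold, nor did it pass with only the controls labelled day 30 (1.56), with the replicate block (2.32) or with the reverse transcription control difference as a covariate (1.91).

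miR-449b and miR-449c were not DEMs. Treated values of miR-449b ran from -8.34 to -7.60 and control values from -10.81 to -7.46, and its log2 fold change was 0.98 ± 0.52 (SE, limma, adjusted p = 0.229). miR-449c ran from -8.13 to -6.04 against -9.02 to -6.61, with a log2 fold change of 0.75 ± 0.50 (SE, limma, adjusted p = 0.321). For miR-449b, the treated arrays lay above the 3 controls of the first run period and within the range of the other 4. For miR-449c, 3 treated arrays lay above every control, replicate 1 lay among the controls of the later run periods, and replicate 5, at -8.13, among those of the first. Against the first run period alone their log2 fold changes were 1.85 and 1.70, and both passed there. Other miRNAs described as induced by p53, miR-192, miR-194 and miR-215, had log2 fold changes of 0.48, 0.20 and 0.55, and none was a DEM. Within the run period 2 of these 3 passed upward, against 35.6% of all miRNAs.

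**Figure D3:**
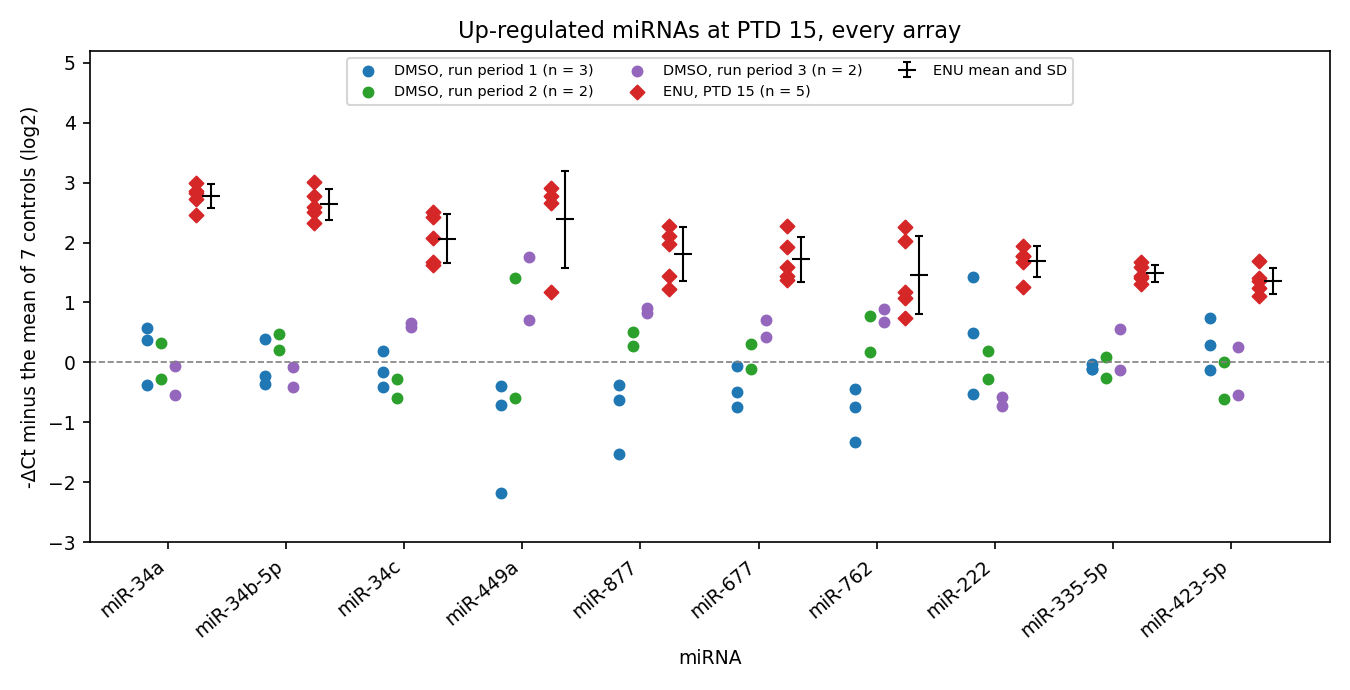
Values of 10 higher DEMs in every array, drawn as -ΔCt minus the mean of the 7 controls (y axis, log2), with controls coloured by run period, ENU arrays as red diamonds and the ENU mean ± SD as black bars. The 5 ENU arrays lie above all 7 controls for miR-34a, miR-34b-5p, miR-34c, miR-877, miR-677, miR-335-5p and miR-423-5p, and touch or cross the control range for miR-449a, miR-762 and miR-222.

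Among the other higher miRNAs, miR-677, miR-877 and miR-762 passed in all 4 settings. The -ΔCt of miR-677 was -5.80, -5.11, -6.01, -5.95 and -5.46 in the treated livers and ran from -8.14 to -6.68, with a median of -7.46, in the controls. The groups did not overlap, and the increase was 3.30-fold (log2 fold change 1.72 ± 0.31, SE, limma, adjusted p = 0.00405). miR-877, made by splicing of a short intron rather than by Drosha, rose 3.51-fold (limma, adjusted p = 0.0168), with treated values around a median of -4.30, all above the controls, which ran from -7.80 to -5.37. miR-762 rose 2.74-fold (limma, adjusted p = 0.049), and the treated liver of replicate 4, at -5.81, lay below 2 of the controls. The 3 lowest controls of miR-877 and miR-762 were those of the first run period, and the log2 fold changes of the 3 miRNAs against these alone were 2.16, 2.65 and 2.30. With the reverse transcription control difference as a covariate, miR-677 and miR-877 passed, with 1.55 and 1.46, and miR-762 did not, with 1.09.

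miR-222, which with miR-221 represses the cell cycle inhibitor p27, had treated values of -3.77, -4.30, -3.61, -3.88 and -3.78. Controls ran from -6.29 to -4.13 with a median of -5.83. The highest control, replicate 3 of day 1, lay above 1 treated liver, and the increase was 3.22-fold (log2 fold change 1.69 ± 0.37, SE, limma, adjusted p = 0.0154). Its clustered partner miR-221 had a log2 fold change of 0.92 and was not a DEM. Within the run period it was the reverse, as miR-221 passed with a log2 fold change of 1.17 and miR-222, with 1.22, did not. Neither passed after scaling to the median of the abundant miRNAs.

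miR-423-5p had treated values of -4.77, -5.01, -4.70, -4.88 and -4.42, all above the controls, which ran from -6.74 to -5.37 with a median of -6.12. The increase was 2.57-fold (log2 fold change 1.36 ± 0.29, SE, limma, adjusted p = 0.0113). Scaled to the median of the abundant miRNAs its log2 fold change was 0.95, under the fold threshold. The rare miR-335-5p, from an intron of the imprinted gene Mest, did not overlap between the groups, with treated values from -7.21 to -6.84 and controls from -8.78 to -7.97 (log2 fold change 1.49 ± 0.23, SE, limma, adjusted p = 0.00118).

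Some seed families held several higher DEMs and others 1. In the miR-130 and miR-301 family, whose seed AGUGCAA stands in the sequences printed above, 3 of 4 measured members were DEMs, all higher, against 6.65% of all miRNAs. miR-130b rose 2.81-fold and miR-301a 2.31-fold without overlap with the controls, and miR-130a rose 2.49-fold with 1 treated liver, replicate 4 at -2.15, below the highest control. The fourth, miR-301b, had a log2 fold change of 0.85. Within the run period the values were 0.95 for miR-130b and 0.81 for miR-130a, neither of which passed, and 1.60 for miR-301a and 1.16 for miR-301b, both of which did.

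Of the miR-106b-25 cluster, from an intron of the replication licensing gene Mcm7, miR-106b and miR-93 were DEMs and miR-25 was not. The -ΔCt of miR-106b was -0.19, -0.14, 0.10, -0.02 and 0.31 in the treated livers and -1.69 to -0.49 in the controls, an increase of 2.13-fold without overlap (limma, adjusted p = 0.0229). miR-93 rose 2.05-fold, also without overlap (limma, adjusted p = 0.0396). The homologous miR-17, miR-20a, miR-20b and miR-106a, with the same seed AAAGUGC, had log2 fold changes from 0.70 to 0.72 and did not pass. miR-32, which shares the seed AUUGCAC with miR-25, miR-92a, miR-92b and miR-363, was the only DEM of these 5, at 1.05 (limma, adjusted p = 0.0635). Of all miRNAs 6.65% were higher DEMs. Within the run period miR-106b, miR-93 and miR-25 had log2 fold changes of 1.525, 1.57 and 1.55, and the 5 with the miR-32 seed ran from 0.62 to 1.55. The median over all miRNAs was 1.05 there. No difference between the members of a seed family was tested, and assays for near-identical members were not checked for shared signal.

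The let-7 and miR-98 family, which restrains proliferation genes, had 1 higher DEM of 9, against 6.65% of all miRNAs. This was let-7b, which rose 2.08-fold (limma, adjusted p = 0.0421). Its treated values of 3.51, 3.62, 3.79, 3.42 and 4.56 overlapped the controls, which ran from 2.26 to 3.65. The other 8 lay between -0.01 for let-7f and 0.92 for let-7c. Of the 9, 6 passed upward within the run period, against 35.6% of all miRNAs. None of miR-106b, miR-93, miR-32, let-7b or the miR-130 and miR-301 members that were DEMs passed in all 4 settings. Their log2 fold changes scaled to the median of the abundant miRNAs were 0.63 to 1.08.

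**Figure D4:**
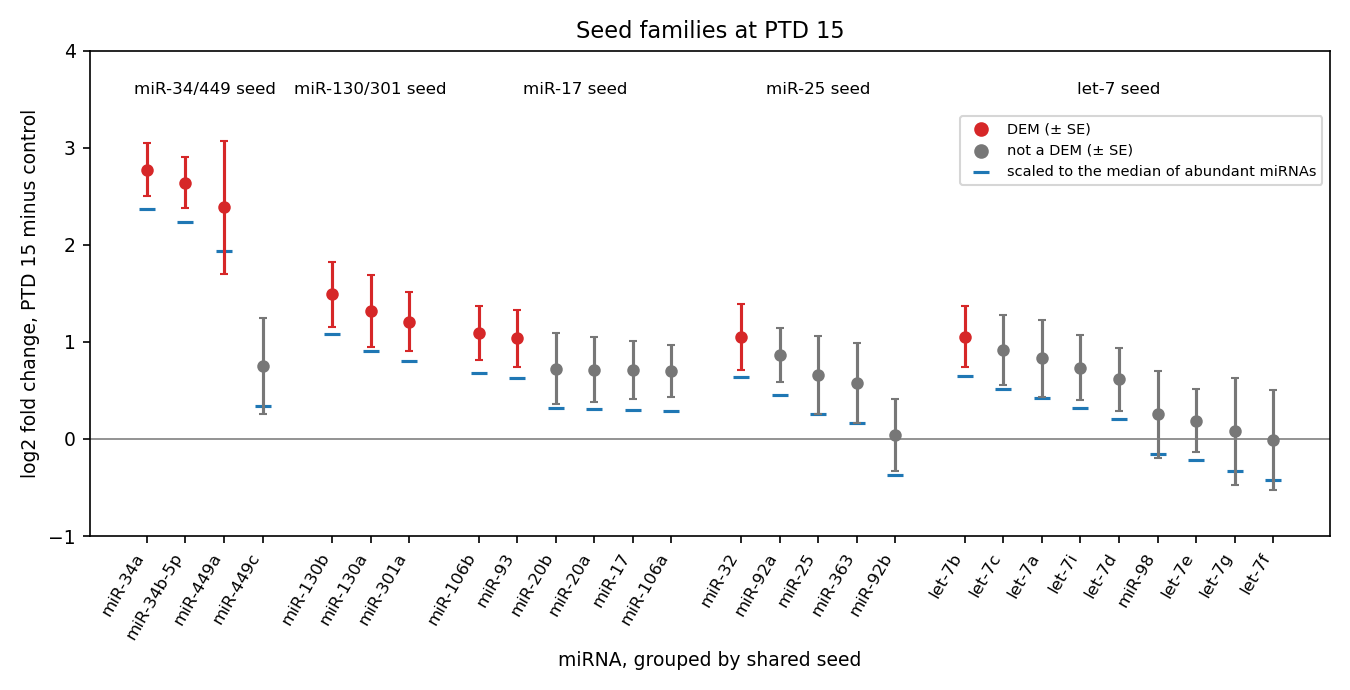
Log2 fold change at PTD 15 ± SE (limma) of the miRNAs whose seed could be read, grouped by seed on the x axis, with DEMs in red and others in grey. Blue bars give the same value after scaling to the median of the abundant miRNAs. The family with the miR-34 seed holds the highest values, 2.39 to 2.78 for its 3 DEMs, and all 3 members with the miR-130 seed lie between 1.21 and 1.49.

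The remaining higher DEMs were mostly modest. The red-cell miRNAs miR-144 and miR-451, made from 1 transcript, rose 2.87-fold (limma, adjusted p = 0.0162) and 2.05-fold (adjusted p = 0.0635), and miR-486 had a log2 fold change of 0.81. The erythroid list thus held 2 DEMs of 3, against 6.65% of all miRNAs, and had a median log2 fold change of 1.04, against 0.36 over all miRNAs. After scaling to the median of the abundant miRNAs none of the 3 passed, where 2.39% of all miRNAs passed upward. Their median was then 0.63, against -0.05 over all miRNAs. Within the run period 2 of the 3 passed upward, with a median of 1.43, against 35.6% and 1.05 over all miRNAs. Against the 7 controls miR-138, miR-219, miR-337-5p, miR-484 and miR-487b had log2 fold changes of 1.33, 1.23, 1.24, 1.03 and 1.37. The rare miR-466d-5p, from an intron of Sfmbt2, was at 2.20 (limma, adjusted p = 0.0201) with a control mean Ct of 35.5. It was the only DEM of the 16 miRNAs of that intron, where 6.65% of all miRNAs were higher DEMs. Within the run period 6 of the 16 passed upward, against 35.6% of all miRNAs.

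Against the 7 controls, none of the 5 hepatocyte miRNAs passed, with log2 fold changes from -0.58 for miR-122 to 0.57 for miR-802. miR-122 was at 7.80, 7.70, 7.60 and 8.66 in 4 treated livers and at 3.29 in replicate 1, against 6.75 to 8.28 in the controls. Replicate 1 lay below every control, while the other 4 lay within or just above the control range. The log2 fold change was -0.58 ± 0.76 (SE, limma, adjusted p = 0.619) with all 5 and 0.35 without replicate 1. None of the 7 immune-cell miRNAs passed (log2 fold changes from -0.95 for miR-142-5p to 0.56 for miR-155), and none of the 10 stromal and endothelial miRNAs did (0.01 to 0.70). The medians of these 3 lists were 0.48, 0.24 and 0.48, beside 0.36 over all miRNAs. Within the run period 3 of the 5 hepatocyte, 1 of the 7 immune-cell and 6 of the 10 stromal and endothelial miRNAs passed upward, with medians of 1.35, 0.89 and 1.21, beside 35.6% and a median of 1.05 over all miRNAs.

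The lower DEMs had larger fold changes and larger spread. Their median absolute log2 fold change was 2.66, against 1.37 for the higher DEMs, and the median SD of the controls was 1.19 against 0.54. In 6 of the 18, and in 14 of the 25 higher DEMs, the treated arrays did not overlap the controls. Over all 376 miRNAs every treated array lay above every control in 7.71% and below every control in 1.86%.

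miR-369-5p, of the imprinted Dlk1-Dio3 cluster on chromosome 12, had treated -ΔCt values of -10.59, -10.11, -12.41, -10.82 and -9.10. The controls ran from -8.11 to -5.78 with a median of -6.90. All treated livers lay below every control, and the level fell 11.4-fold (log2 fold change -3.51 ± 0.54, SE, limma, adjusted p = 0.00101). miR-302c*, the minor arm of an embryonic stem cell miRNA, had treated values of -9.53, -7.91, -9.93, -10.18 and -6.91 against controls from -5.61 to -4.22 with a median of -5.18. It fell 13.4-fold without overlap (log2 fold change -3.74 ± 0.53, SE, limma, adjusted p = 0.000991). In both, the treated livers of replicates 2 and 5 were the least reduced.

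miR-135b showed the largest difference of all DEMs. Its treated values were -11.42, -12.96, -13.46, -12.23 and -16.13, and the controls ran from -9.68 to -6.47 with a median of -7.51. Every treated liver lay below every control, with a log2 fold change of -5.27 ± 0.79 (SE), a 38.5-fold decrease (limma, adjusted p = 0.000993). Replicate 5 was the lowest, and without it the log2 fold change was -4.54. The mean Ct went from 29.7 in the controls to 35.8, near the end of the 40 cycles, so the size of the fall is less certain than its direction. Its paralog miR-135a, rare in the controls, had a log2 fold change of -0.43 and was not a DEM.

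miR-681 had treated values of -11.27, -10.90, -13.14, -11.08 and -10.05, just below the lowest control. Controls ran from -9.83 to -6.68 with a median of -7.61, and the 2 lowest, at -9.83 and -9.39, were those of the third run period. The log2 fold change was -3.20 ± 0.62 (SE), a 9.20-fold decrease (limma, adjusted p = 0.00723). miR-453, also of the Dlk1-Dio3 cluster, was at -8.97, -9.15, -9.04 and -9.07 in 4 treated livers, below all controls, and at -7.44 in replicate 5, within the control range of -7.83 to -6.32. It fell 3.60-fold (log2 fold change -1.85 ± 0.37, SE, limma, adjusted p = 0.00797).

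The remaining abundant DEMs that fell were miR-758 and miR-489. miR-758 fell 8.61-fold (limma, adjusted p = 0.0162) over the 4 treated livers in which it was measured, being Undetermined in replicate 3. Of these, replicate 5, at -5.86, lay above the lowest control, at -6.37, which was 1 of the 2 of the third run period. miR-489, from an intron of the calcitonin receptor gene, fell 4.82-fold (limma, adjusted p = 0.0396). Its treated values lay between -9.98 and -9.28, within 1 cycle of each other, and of the 2 controls of the third run period, at -9.20 and -9.40, the latter lay among them and the former just above, while the other 5 lay from -7.66 to -5.60.

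**Figure D5:**
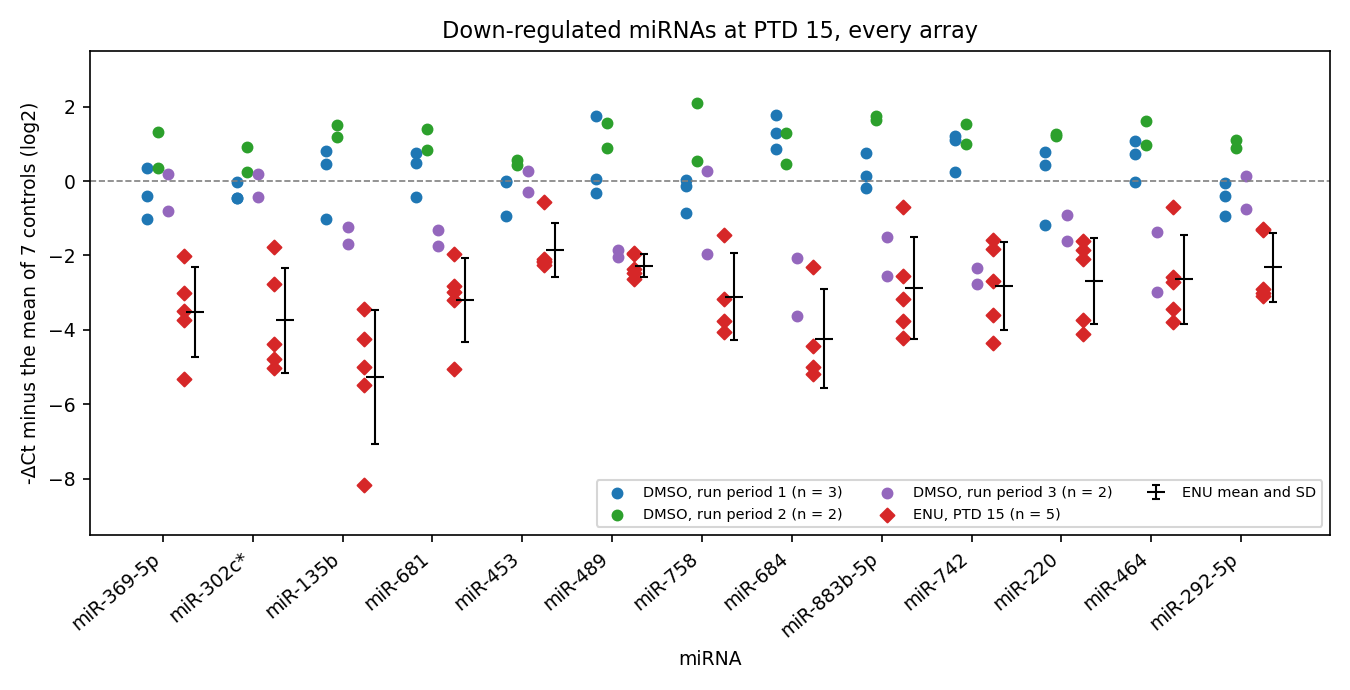
Values in every array of the 13 lower DEMs that passed in all 4 settings, drawn as in the plot of the higher DEMs. The 5 ENU arrays lie below all 7 controls for miR-369-5p, miR-302c*, miR-135b, miR-681, miR-220 and miR-292-5p. For miR-758, miR-489, miR-684, miR-883b-5p, miR-742 and miR-464 at least 1 of the 2 controls of the third run period (purple) lies among the ENU arrays, and the other 5 controls lie above all of them.

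For the 5 largest falls among the rare miRNAs, the controls are given by run period. miR-684 was at -13.46, -12.91, -13.64 and -10.78 in 4 treated livers and Undetermined in replicate 3. The controls of the first and second run periods ran from -8.01 to -6.70, and those of the third were at -10.53 and -12.09. The log2 fold change was -4.23 ± 1.00 (SE, limma, adjusted p = 0.0195), and the exact permutation test gave p = 0.0121. Without the treated replicate 5 the log2 fold change was -4.87, and without the day 30 control of replicate 4 it was -4.83. miR-883b-5p ran from -13.33 to -9.83 at PTD 15, from -9.33 to -7.39 in the first 2 run periods, and was at -11.68 and -10.64 in the third (log2 fold change -2.88 ± 0.79, SE, limma, adjusted p = 0.0375). miR-742 ran from -13.71 to -10.93, from -9.12 to -7.81, and was at -11.68 and -12.11 (log2 fold change -2.82 ± 0.82, SE, limma, adjusted p = 0.0396). In all 3 the treated livers lay below every control of the first 2 run periods and overlapped those of the third. miR-742 no longer passed without the treated replicate 2 or 3, with -2.62 and -2.43.

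miR-464 was at -13.47, -10.39, -12.27, -12.40 and -13.12 in the treated livers, from -9.72 to -8.08 in the first 2 run periods, and at -12.66 and -11.05 in the third (log2 fold change -2.64 ± 0.77, SE, limma, adjusted p = 0.0396). It no longer passed without the treated replicate 1 or 5, with -2.36 and -2.45. miR-464 and miR-742 also did not pass by the methods' t-test, and miR-464 did not with the replicate block (log2 fold change -2.34) or in 1 fit of all groups. By the exact permutation test, and with only the controls labelled day 30, none of miR-684, miR-883b-5p, miR-742 and miR-464 passed. miR-220 ran from -13.57 to -11.08 at PTD 15, from -10.65 to -8.21 in the first 2 run periods, and was at -10.37 and -11.07 in the third. The control at -11.07 lay at the edge of the treated range. For miR-220 the log2 fold change was -2.68 ± 0.63 (SE, limma, adjusted p = 0.0168). Averaged over the 18 lower DEMs, the deviation from the control mean was between -3.43 and -1.94 in the treated arrays, -0.81 and -1.28 in the 2 controls of the third run period, and between -0.53 and 1.21 in the other 5. The reverse transcription control difference was lowest in those 5 controls and highest in the 2 controls of the third run period, whose averages lay between those of the other controls and those of the treated arrays. With that difference as a covariate, 39 miRNAs passed (10.4%). They included 17 of the 18 lower DEMs, all but miR-880, where 23 passed downward (6.12%), and 16 of the 25 higher DEMs, where 16 passed upward (4.26%). Without the 2 controls of the third run period, a setting added after the data were seen, 83 miRNAs passed (22.1%). They included 17 of the 18 lower DEMs, all but miR-871, where 26 passed downward (6.91%), and 23 of the 25 higher ones, where 57 passed upward (15.2%).

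Of the 11 rare lower DEMs 5 lie together on the X chromosome, a grouping described after the values were seen. Of 12 measured miRNAs in chrX:66777256-66814025 (GRCm38.p6), a cluster known for expression in testis, all 12 were rare and 5 were lower DEMs (miR-742, miR-871, miR-880, miR-883a-5p and miR-883b-5p), and 7 had a log2 fold change below 0. Lower DEMs made up 4.79% of all miRNAs and 6.75% of the rare, and 125 of all 376 and 70 of the 163 rare miRNAs lay below 0. The median over the 12 was -0.37, beside 0.36 over all miRNAs. It was 0.57 within the run period, beside 1.05 over all miRNAs. After scaling to the median of the abundant miRNAs it was -0.78, beside -0.05. Its sign thus turned with the controls, but it lay below the median of all miRNAs in each of these settings. A sixth lower DEM of the chromosome, miR-509-5p, with -1.82, lies outside this stretch. The arms of a hairpin differed, as miR-883b-5p was at -2.88 and miR-883b-3p at 0.96, and miR-883a-5p at -1.73 and miR-883a-3p at -0.44. The Dlk1-Dio3 list on chromosome 12 held 3 lower (miR-369-5p, miR-453, miR-758) and 2 higher DEMs (miR-337-5p, miR-487b) of 44, where 11.4% of all miRNAs were DEMs, and its median was 0.11. Within the run period 11 of the 44 passed upward and 5 downward (median 0.72), against 35.6% and 4.79% of all miRNAs and a median of 1.05. After scaling to the median of the abundant miRNAs 0 passed upward and 6 downward (median -0.30), against 2.39% and 8.78% of all and a median of -0.05. Of 13 embryonic stem cell miRNAs, 2 were lower DEMs, against 4.79% of all miRNAs. These 2, miR-302c* and miR-292-5p (fold change 5.00, limma, adjusted p = 0.009) fell, and the median of the list was -0.76. Of that list 3 members passed upward and 3 downward within the run period, against 35.6% and 4.79% of all miRNAs, and its median was 0.04, against 1.05. The last rare lower DEM was miR-875-3p at -2.42. Of the 18, miR-880 at -1.83 had an adjusted limma p above 0.05, 0.0551.

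Against the 7 controls, the other lists of miRNAs held no DEM, except the neural one with miR-219. Their median log2 fold changes were 0.71 for the miR-17-92 and miR-106a clusters (9 miRNAs), 0.38 for the miR-15 and miR-16 family (7), 0.61 for miR-29 (3), 0.48 for miR-30 (5), 0.72 for miR-181 (3), 0.49 for the miR-23, miR-27 and miR-24 clusters (5), 0.19 for the miR-200 family (5), 0.35 for muscle (5), 0.39 for neural (7) and 1.15 for miR-96, miR-182 and miR-183 (3). Upward calls within the run period, made for 35.6% of all miRNAs, covered 7 of 9 in the miR-17-92 and miR-106a clusters, 5 of 7 in the miR-15 and miR-16 family, 1 of 3 in miR-29, 2 of 5 in miR-30, 2 of 3 in miR-181 and 3 of 5 in the miR-23, miR-27 and miR-24 clusters. They also covered 1 of 5 muscle and 4 of 7 neural miRNAs, all 3 of miR-96, miR-182 and miR-183 and none of the miR-200 family, and no member of these lists passed downward there. After scaling to the median of the abundant miRNAs none passed upward and 1 neural miRNA passed downward, and the medians of the miR-15 and miR-16, miR-200, muscle and neural lists were -0.03, -0.22, -0.06 and -0.02.

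Few miRNAs passed between PTD 15 and PTD 7, the nearest earlier time, whose arrays were run in the same period. In limma between the 5 arrays of each, 6 miRNAs had an unadjusted p under 0.01 and a fold change above 2 (1.6%), all higher at PTD 15, and none had an adjusted p under 0.05. The direction turned with the scaling, since after scaling to the median of the abundant miRNAs 6 passed as well (1.6%), but 1 was higher (0.266%) and 5 were lower (1.33%), and again none had an adjusted p under 0.05. The median over all miRNAs was 0.18 with the reference RNAs and -0.08 with the other scaling. At an unadjusted p under 0.05 there were 24 by limma and 26 by the exact permutation test. The 5 with the smallest p were miR-687, miR-329, miR-154*, miR-764-3p and miR-880, all rare, with log2 differences from 1.28 to 1.58 and an adjusted limma p of 0.547. Leaving out 1 array in turn gave 1 to 10 such miRNAs, with 10 without replicate 3 of PTD 15, and each of the treated replicates 1, 4 and 5 of PTD 15 and replicates 1, 2 and 3 of PTD 7 took the count to 3 or fewer.

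Both times were compared with the same 7 controls, so their values are given only side by side. The log2 fold changes at PTD 7 and PTD 15 were 3.00 and 2.64 for miR-34b-5p, 1.91 and 2.78 for miR-34a, 2.33 and 2.07 for miR-34c and 1.00 and 2.39 for miR-449a. For miR-877 they were 0.69 and 1.81. The PTD 7 value of miR-34a rested on replicate 5 of PTD 7, at -2.51 against 1.15 to 1.58 in the other 4, and was 2.70 without it. That of miR-877 was 1.28 without replicate 2 of PTD 7, at -7.93 against -5.37 to -4.51. Among the lower miRNAs they were -3.74 and -5.27 for miR-135b, -3.51 and -3.74 for miR-302c*, -4.05 and -3.51 for miR-369-5p and -3.41 and -1.83 for miR-880. Without replicate 5 of PTD 7 the PTD 7 value of miR-369-5p was -3.28. Leaving out PTD 7 arrays here was a setting added after the data were seen, and moved no other of these PTD 7 fold changes by over 1.5 times. Against the controls 37 miRNAs were DEMs at PTD 7 (9.84%), 9 higher (2.39%) and 28 lower (7.45%). Of the miRNAs just named, only miR-880 passed between PTD 15 and PTD 7, at the unadjusted threshold, under both scalings.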

How the data were processed

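Liver small RNA was measured on SYBR Green PCR arrays, 1 per mouse. The authors deposited the Ct of each well in cycles (a score on a log2 scale), calculated by SDS (version 2.3) with a threshold of 0.15 and no normalization. Wells were named from the list of assays in the study's supplement. Groups follow the labels. Because labels (3 and 4) and Methods (4 and 3) differ on how many DMSO mice were killed at days 1 and 30, all 7 formed 1 control group, as in the study.

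-ΔCt was compared in limma (version 3.58.1, R version 4.3.3), two-sided, on all 376 miRNAs, with the study's DEM thresholds of an unadjusted p under 0.01 and a fold change above 2. The study used t-tests. Of the 15 wells given as Undetermined, 5 were in PTD 15 and 1 in a control, and all were treated as missing. Exact permutation tests ran over all splits of the measured arrays, 792 for 5 against 7, 330 where 1 treated well was missing, 252 for 5 against 5 and 56 for 5 against 3. Precision is limited by the number of arrays, as PCR has no read depth. p-values measure the spread between arrays, 1 per mouse. Among the controls this spread also holds differences of day label and run period, for which the main fit has no term. In simulated data with the spread of the PTD 15 and control arrays, limma called 29 of 40 miRNAs changed by a log2 fold change of 2, and 2 unchanged ones. The simulated noise was independent for each miRNA and had no shift shared by an array or run period. These counts therefore do not cover false calls from such shifts.

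Named in full are the 10 abundant DEMs with the smallest p, the 5 rare DEMs with the largest change among those on 1 side of the control mean, the miR-34 and miR-449 family and miR-122, and other DEMs and lists by value. The group, lists and rule were chosen with earlier results of these data known. Alternatives were other scalings, each set of 3 reference RNAs, other tests and thresholds, subsets of controls, run period as a block, the reverse transcription control difference as a covariate, limits on high Ct and each array left out. PTDs other than 7 and 15 were not analysed here. Figures and tables used Python (version 3.11.15), pandas (version 2.3.3), scipy (version 1.17.1) and matplotlib (version 3.10.9).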

Additional observations from a re-analysis of the deposited data

Results flagged for a closer look

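Each named miRNA and the mean reference Ct were searched for a single array far from the others of its group, in 44 groups of values, and 4 were found. For independent groups chance would give about 1 in 20, but these groups share arrays and reference RNAs. Of the treated livers, miR-122 was at 3.29 in replicate 1, against 7.60 to 8.66 in the other 4. miR-449a was at -10.77 in replicate 4, against -9.28 to -9.03 in the other 3 with a value. miR-453 was at -7.44 in replicate 5, against -9.15 to -8.97. In replicate 5 the reference RNAs had a mean Ct of 23.5 cycles, against 22.1 to 22.4. Without replicate 5 there were 37 DEMs, 18 higher and 19 lower, and 16 of the 25 higher and 16 of the 18 lower DEMs of the full comparison were among them.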

How the results depend on the processing

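The limma comparison with the controls gave 43 DEMs, 26 of them abundant, and 17 of those named in full. Leaving out 1 array in turn gave 34 to 58 DEMs, 99 to 147 within the run period (99 without the day 1 control of replicate 3), and 1 to 10 between PTD 15 and PTD 7. With only the controls labelled day 1 there were 152 DEMs and 96 abundant ones, with run period as a fixed block 160 and 105, and with it as a random block 136 and 88. Scaling to the median of the abundant miRNAs took the 152 to 69. A fit of the abundant miRNAs alone gave 27, and 10 of those named, since it tests fewer miRNAs. After the data were seen, leaving out the 2 controls of the third run period gave 83, and 20 passed under both scalings and both control sets. The replicate numbers of the labels mark different mice, and same-numbered arrays correlated between -0.121 and 0.098 in their deviations from the group means, so they do not pair the arrays. With the replicate block there were 27 DEMs, 15 abundant. The cause of these shifts was not tested. The share of higher DEMs, 58.1%, was 63.6% scaled to the median of all miRNAs, 37.2% without U6, 73.8% without snoRNA251, 41.0% with the covariate, 41.2% with only the controls labelled day 30, 44.4% with the replicate block and 68.7% without the controls of the third run period. None of the 17 changed direction. Of the other DEMs miR-130a did so within the run period scaled to the abundant miRNAs, at -0.03. miR-34a, miR-34b-5p, miR-302c*, miR-369-5p, miR-135b, miR-677, miR-681 and miR-453 passed in all 31 settings, and miR-34c and miR-220 in all 30. With Undetermined wells set to 40 cycles miR-449a had a log2 fold change of 0.74. The methods' t-test gave 38 DEMs, and 30 after Benjamini-Hochberg adjustment.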
